A study of Homo sapiens with 54 samples.

Results

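The 40 genes described here act in the unfolded protein response and the endoplasmic reticulum (ER) secretory route, and were followed in 3 human prostate cancer cell lines treated with an estrogen, an estrogen receptor beta ligand and an androgen receptor antagonist. They are a named list of chaperones and folding enzymes (17 genes), factors of ER-associated degradation (7), stress sensors and transcription factors (6), and translocation and transport genes (10). All 40 were found among the 19225 rows of the deposited expression table, 26 by the gene name in the table and 14 by Entrez ID alone, and all 40 passed the filter on low values in every fit. The list was not chosen by any measured value, but it was drawn up with earlier results of these data known.

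RNA was sequenced from 54 libraries, 3 in each of 18 groups, which the labels call biological triplicates. The LNCaP line was derived from a lymph node deposit of prostate cancer and responds to androgen. C4-2 descends from LNCaP and no longer needs testicular androgen to form tumours, and 22Rv1 was grown out of a xenograft that had recurred after castration. Each line was treated for 12 h with 17-beta-estradiol (E2, 100 nM), E2 with enzalutamide, OSU-ERb-12 (OSU, 100 nM), OSU with enzalutamide, the androgen receptor antagonist enzalutamide alone (Enza, 1 µM), or the ethanol vehicle. All cells grew in medium with 10% serum, so that no group, vehicle included, was free of the hormones that serum holds, and each line is a single established culture. The comparisons ask what each ligand does to gene expression with and without Enza.

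Proteins that enter the ER are folded by chaperones and disulfide isomerases, and those that fail are sent back to the cytosol for degradation. When unfolded proteins build up, the membrane sensors IRE1 (gene ERN1), PERK (EIF2AK3) and ATF6 signal to the nucleus, where XBP1, ATF4 and the cleaved form of ATF6 raise chaperone, degradation and transport genes. Luminal prostate cells secrete large amounts of protein, and androgen receptor activity is known to be tied to this machinery in prostate cancer.

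Each library held 32819568 to 52417050 counted reads, and a single read corresponded to 0.0204 to 0.0323 CPM, the counts per 1000000 reads. Members ranged from KDELR3, at 2.08 to 8.46 CPM and never under 90 reads, to HSP90B1, at 664 to 4210 CPM. All 8 luminal prostate markers were present (KLK3 at 385 to 1620 CPM in LNCaP, 1360 to 2570 CPM in C4-2 and 4.34 to 22.3 CPM in 22Rv1). Of the basal markers 1 of 3 was in the table (KRT14, at most 1.77 CPM), of the endothelial markers 1 of 3 (VWF, at most 18.7 CPM) and of the fibroblast markers 2 of 4 (COL1A1, at most 20.2 CPM). The androgen-regulated genes FKBP5, KLK2, KLK3 and TMPRSS2 rose with E2 in each line and fell with Enza, apart from TMPRSS2 in 22Rv1 (log2 fold change -0.04 with Enza). C4-2 vehicle library 1 carries the cell line tag of 22Rv1 and is used by its title as C4-2. A set of 72 genes had at least 20 CPM in all 22Rv1 libraries and averaged at most 0.2 CPM in the other C4-2 libraries. They summed to 26.6 CPM in C4-2 vehicle 1 and to 3.24 to 6.69 CPM in the other 17 C4-2 libraries. Their mean sum in 22Rv1 was 5590 CPM. That choice held the 17 libraries low but not vehicle 1, so the contrast is no independent evidence of 22Rv1 material. Mitochondrial ribosomal RNA took 0.196% of reads in 22Rv1 vehicle 3 and 0.149% in C4-2 E2 3, with a median of 0.0435% over all libraries. These 3 libraries and 22Rv1 OSU+Enza 2, which an earlier description of the data set apart, are left out together where that is said.

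Promoter sequence was at hand for 36 of the 40 members (RefSeq, GRCh38.p14, 250 bases before to 50 after the start). The ER stress response element ERSE, searched on both strands as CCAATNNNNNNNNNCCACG, occurred in 7 of these 36 (19.4%), against 25 of 27305 genes with a promoter (0.0916%). The related ERSE-II, ATTGGNCCACG, occurred in 3 of 36 (8.33%), against 19 genes (0.0696%). The XBP1 and ATF6 site UPRE, TGACGTGG, occurred in 4 of 36 (11.1%: DNAJC10, HYOU1, SSR3 and KDELR3), against 253 genes (0.927%). CCACG alone, which lies within each of these motifs on one strand or the other, occurred in 28 of 36 (77.8%), against 42.1% of genes. The 27305 genes include the members, which were listed as genes of this response, so that these shares are no independent evidence about them. Only exact matches were searched, so that these promoters and those of members not listed may hold variant forms. Some genes have more than 1 promoter window, and a gene counts if any of them holds a match. The CANX stretch lies in several windows, ending 133 or 171 bases before the start or past it. CANX spans 179678656 to 179731641 and PDIA6 10783391 to 10837712, so both stretches lie within the mapped gene. The ERSE and ERSE-II matches are shown with the fixed letters of the motif in capitals and each stretch read 5′ to 3′ on the strand named:
HSPA5, chr9:125241391-125241409, minus strand: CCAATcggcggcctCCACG
HSP90B1, chr12:103930216-103930234, plus strand: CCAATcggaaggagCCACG
HSP90B1, chr12:103930321-103930339, minus strand: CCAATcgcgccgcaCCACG
CALR, chr19:12938384-12938402, minus strand: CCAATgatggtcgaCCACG
CANX, chr5:179698778-179698796, plus strand: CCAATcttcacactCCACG
PDIA6, chr2:10812853-10812871, minus strand: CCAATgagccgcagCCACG
CRELD2, chr22:49918554-49918572, minus strand: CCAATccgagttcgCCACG
XBP1, chr22:28800603-28800621, minus strand: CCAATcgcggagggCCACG
HERPUD1, chr16:56932025-56932035, plus strand: ATTGGgCCACG
HYOU1, chr11:119057380-119057390, plus strand: ATTGGaCCACG
HYOU1, chr11:119057274-119057284, plus strand: ATTGGaCCACG
SDF2L1, chr22:21642114-21642124, minus strand: ATTGGtCCACG

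The promoters of HSPA5, HERPUD1 and ERN1 are given whole, because HSPA5 and ERN1 were called with E2 in all 3 lines and HERPUD1 has the ERSE-II form. The HSPA5 stretch with ERSE ends 48 bases before the start site. ERN1 held no match to any of these motifs in this window, which says only that these letters are not in it.
HSPA5 promoter, chr9:125241294-125241593, minus strand: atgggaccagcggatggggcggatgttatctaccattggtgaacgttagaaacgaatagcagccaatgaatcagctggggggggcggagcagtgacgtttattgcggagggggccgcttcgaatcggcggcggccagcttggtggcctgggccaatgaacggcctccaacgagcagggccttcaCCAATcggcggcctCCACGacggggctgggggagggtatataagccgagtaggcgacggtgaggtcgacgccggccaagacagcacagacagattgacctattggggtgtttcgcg
HERPUD1 promoter, chr16:56931892-56932191, plus strand: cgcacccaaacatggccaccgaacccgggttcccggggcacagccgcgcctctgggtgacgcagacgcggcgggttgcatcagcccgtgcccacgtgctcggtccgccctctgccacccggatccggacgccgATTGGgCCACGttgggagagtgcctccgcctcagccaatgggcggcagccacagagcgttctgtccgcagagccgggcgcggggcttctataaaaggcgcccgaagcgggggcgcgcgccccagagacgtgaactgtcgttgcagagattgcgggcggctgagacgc
ERN1 promoter, chr17:64130095-64130394, minus strand: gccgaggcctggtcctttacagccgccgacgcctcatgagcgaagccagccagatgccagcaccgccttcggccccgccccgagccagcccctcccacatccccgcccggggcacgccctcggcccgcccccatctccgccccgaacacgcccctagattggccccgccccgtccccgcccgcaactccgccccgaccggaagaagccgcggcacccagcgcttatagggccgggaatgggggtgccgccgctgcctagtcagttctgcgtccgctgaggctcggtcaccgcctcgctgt

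E2 raised most of the members in LNCaP and 22Rv1 and few in C4-2, and no member fell with E2 in any line. In LNCaP 34 of 40 rose, where 13.3% of the 14251 genes tested rose and 11.6% fell (limma on log2(CPM + 0.5), Benjamini-Hochberg adjusted over all genes, called at 0.05). In 22Rv1 30 of 40 rose, where 17.1% of 14866 genes rose and 10.6% fell. In C4-2 7 of 40 rose, where 2.72% of 14027 genes rose and 3.11% fell. The changes were small: the median log2 fold change of the members was 0.23 in LNCaP, 0.22 in 22Rv1 and 0.05 in C4-2, against 0.03 or less in size for the median of all genes in each line. Higher expressed genes were called more often in general. Among genes with a mean of at least 50 CPM, 20.9% rose with E2 in LNCaP, 33.3% in 22Rv1 and 3.06% in C4-2, against 26 of 30, 23 of 31 and 5 of 32 members at that level. The median log2 fold change at that level was 0.22 for members and 0.02 for all genes in LNCaP, 0.20 and 0.10 in 22Rv1, and 0.04 and -0.05 in C4-2. In CPM, the 40 members together summed to 9351, 9363 and 9403 with E2 in LNCaP, against 7917, 8010 and 8277 with vehicle, with no overlap. In 22Rv1 the sum was 18006 to 18380 CPM with E2 and 15104 to 15659 CPM with vehicle. In C4-2 the sum was 9721 to 10443 CPM with E2 and 9576 to 9867 CPM with vehicle, and these ranges overlap. A change in RNA per cell and a change in which cells are present cannot be told apart in such bulk samples.

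**Figure D1:**
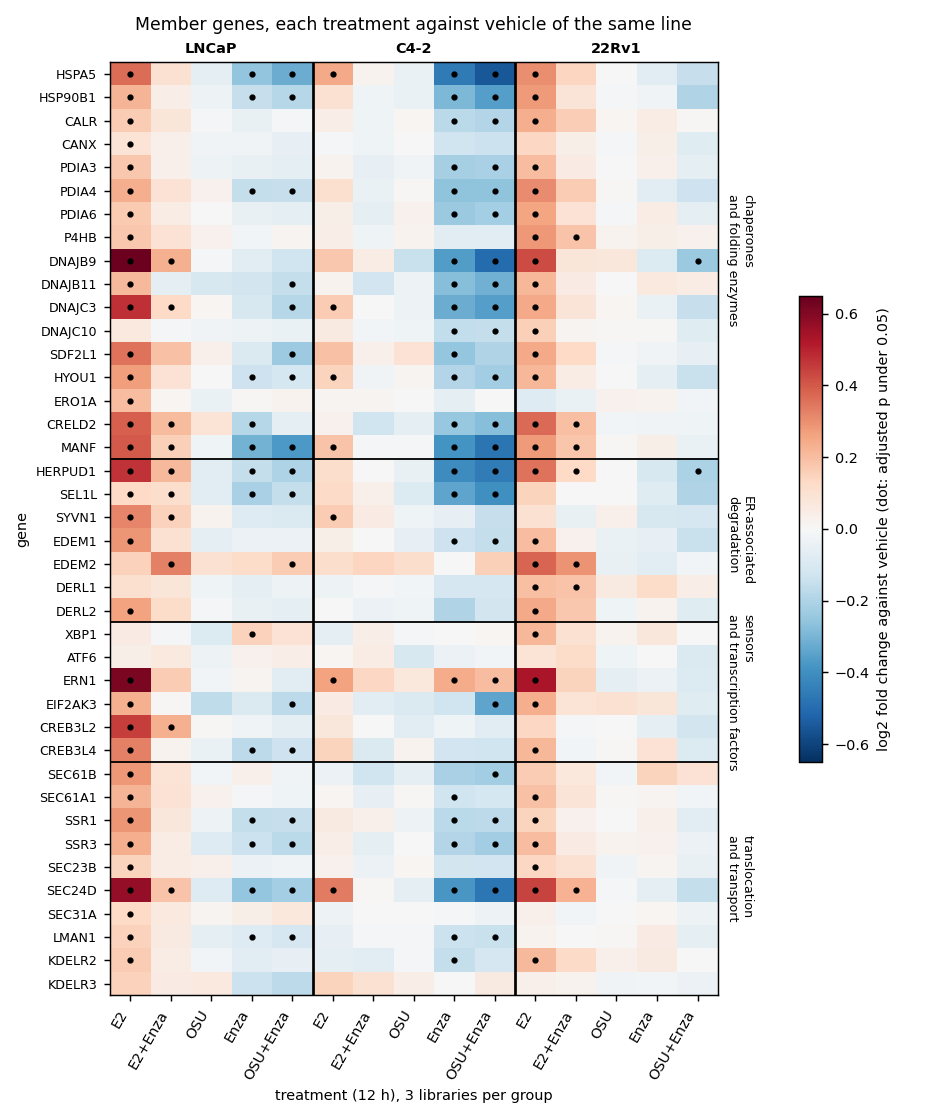
Log2 fold change of each of the 40 members (rows, by branch) for 5 treatments against the vehicle of the same line (columns), with a dot where the adjusted p was under 0.05; all columns of a line share its 3 vehicle libraries. The E2 columns of LNCaP and 22Rv1 are red in nearly every row, the Enza and OSU+Enza columns of C4-2 are mostly blue, and the OSU columns hold no dot.

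Among the chaperones and folding enzymes, 16 of 17 rose with E2 in LNCaP, 15 in 22Rv1 and 4 in C4-2. HSPA5 encodes BiP, the main ER Hsp70 chaperone (chromosome 9, 125234853 to 125241343, GRCh38.p14). In LNCaP it had 759, 781 and 790 CPM with E2, against 595, 596 and 620 CPM with vehicle. In C4-2 it had 842, 880 and 831 CPM with E2, against 716, 713 and 720 CPM with vehicle. In 22Rv1 it had 1902, 1887 and 1890 CPM with E2, against 1489, 1553 and 1560 CPM with vehicle. Every E2 library lay above every vehicle library in each line, and the log2 fold changes were 0.36 ± 0.03 (SE, here and below), 0.25 ± 0.04 and 0.30 ± 0.06 (n = 3 libraries per group, limma, adjusted p = 9.4e-10, 0.00016 and 0.0003).

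DNAJB9, a J-domain cochaperone of BiP, gave the largest log2 fold change among the members in LNCaP, 0.64 ± 0.07 (limma, adjusted p = 3.6e-08). It had 24.2, 27.9 and 24.8 CPM with E2, against 15.8, 17.2 and 15.8 CPM with vehicle, with no overlap. In 22Rv1 it rose by 0.43 ± 0.07 and in C4-2 it gave 0.17 ± 0.06, which was not called (limma, adjusted p = 1.8e-05 and 0.080). DNAJC3, another BiP cochaperone, rose by 0.48 ± 0.04 in LNCaP, with 90.0, 94.1 and 97.1 CPM with E2 against 65.2, 70.0 and 66.4 CPM with vehicle. MANF, a secreted ER stress protein, rose in LNCaP by 0.40 ± 0.04, with 152, 151 and 155 CPM with E2 against 110, 116 and 122 CPM with vehicle. HYOU1, the large ER Hsp70 with ERSE-II in its promoter, rose by 0.27 ± 0.03 in LNCaP and by 0.22 ± 0.05 in 22Rv1. HSP90B1, the ER Hsp90, rose by 0.22 ± 0.03 in LNCaP and 0.28 ± 0.08 in 22Rv1, and the isomerase PDIA4 by 0.24 ± 0.03 and 0.31 ± 0.06. SDF2L1, a BiP cofactor, rose by 0.35 ± 0.06 and 0.25 ± 0.05 in these lines. In C4-2 HSP90B1 gave 0.10 ± 0.05, PDIA4 0.10 ± 0.05 and SDF2L1 0.19 ± 0.07, none of them called (limma, adjusted p = 0.25, 0.22 and 0.11). The oxidase ERO1A rose in LNCaP (0.20 ± 0.05) and gave -0.08 ± 0.06 in 22Rv1, so that it was the only member with a negative value with E2 there. Of the 7 members with ERSE, 6 rose in LNCaP (not XBP1), 6 in 22Rv1 (not CANX) and HSPA5 alone in C4-2. Of the 3 with ERSE-II all rose in LNCaP and 22Rv1, and HYOU1 in C4-2. Of all 40 members 34 rose in LNCaP, 30 in 22Rv1 and 7 in C4-2, and no difference between members with and without a motif was tested.

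Among the factors of ER-associated degradation, 5 of 7 rose with E2 in LNCaP, 5 in 22Rv1 and 1 in C4-2. HERPUD1, a membrane adaptor of the degradation complex (chromosome 16), had 65.2, 64.7 and 67.2 CPM with E2 in LNCaP, against 46.7, 47.6 and 47.5 CPM with vehicle. It had 213, 222 and 215 CPM with E2 in 22Rv1, against 167, 166 and 176 CPM with vehicle. The groups do not overlap in either line, and the log2 fold changes were 0.47 ± 0.04 and 0.35 ± 0.04 (limma, adjusted p = 1.1e-10 and 6.1e-07). In C4-2 HERPUD1 had 94.0, 98.2 and 91.8 CPM with E2, against 85.5, 85.8 and 91.3 CPM with vehicle. These groups do not overlap either, and the value of 0.11 ± 0.05 was not called (limma, adjusted p = 0.18). SEL1L, the scaffold of the ubiquitin ligase, rose in LNCaP by 0.13 ± 0.03 and gave 0.14 ± 0.06 in 22Rv1 and 0.12 ± 0.04 in C4-2 without a call (limma, adjusted p = 0.0029, 0.074 and 0.068). SYVN1, the ligase itself, rose in LNCaP (0.32 ± 0.04) and in C4-2 (0.16 ± 0.05), and gave 0.10 ± 0.04 in 22Rv1. The C4-2 call was lost without vehicle 1, vehicle 2, vehicle 3, E2 1 or E2 3. EDEM2, a mannosidase that trims misfolded glycoproteins, rose in 22Rv1 (0.38 ± 0.06), with 34.1, 32.6 and 32.2 CPM with E2 against 25.5, 25.8 and 24.5 CPM with vehicle. In LNCaP EDEM2 had 18.6, 17.1 and 17.9 CPM with E2 and 15.5, 16.1 and 16.5 CPM with vehicle, which do not overlap and were not called (0.15 ± 0.06, limma, adjusted p = 0.067).

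Among the sensors and transcription factors, 4 of 6 rose in LNCaP, 4 in 22Rv1 and 1 in C4-2. ERN1 encodes IRE1, the sensor kinase and RNase that splices XBP1 mRNA. It had 27.2, 26.3 and 27.7 CPM with E2 in LNCaP, against 18.7, 16.8 and 17.2 CPM with vehicle. In C4-2 it had 22.9, 22.0 and 21.0 CPM with E2, against 17.6, 19.1 and 17.9 CPM with vehicle. In 22Rv1 it had 10.4, 11 and 13.3 CPM with E2, against 7.67, 7.30 and 8.47 CPM with vehicle. The groups do not overlap in any line, and the log2 fold changes were 0.61 ± 0.06, 0.26 ± 0.06 and 0.53 ± 0.10 (limma, adjusted p = 8.1e-10, 0.0057 and 0.0002). EIF2AK3, the PERK kinase, rose in LNCaP (0.23 ± 0.06) and 22Rv1 (0.24 ± 0.07) and gave 0.05 ± 0.06 in C4-2. The 22Rv1 call was lost without E2 library 3. ATF6 was not called in any line (0.04 ± 0.04, 0.01 ± 0.06 and 0.09 ± 0.05 in LNCaP, C4-2 and 22Rv1).

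XBP1, the transcription factor downstream of IRE1, rose in 22Rv1 (0.21 ± 0.05, limma, adjusted p = 0.0038). There it had 153, 156 and 145 CPM with E2, against 125, 130 and 136 CPM with vehicle. In LNCaP it had 141, 148 and 141 CPM with E2 and 136, 136 and 142 CPM with vehicle, which overlap and were not called. Gene-level counts do not tell the spliced from the unspliced mRNA. CREB3L2 and CREB3L4, ER-anchored transcription factors related to ATF6, rose in LNCaP by 0.45 ± 0.04 and 0.33 ± 0.04. In 22Rv1 CREB3L4 rose by 0.22 ± 0.07, a call lost without vehicle 1, E2 1 or E2 2, and CREB3L2 gave 0.14 ± 0.05 (limma, adjusted p = 0.016 and 0.056). In C4-2 CREB3L2 gave 0.07 ± 0.04 and CREB3L4 0.14 ± 0.04, neither called.

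Among the translocation and transport genes, 9 of 10 rose in LNCaP, 6 in 22Rv1 and 1 in C4-2. SEC24D, a cargo-binding subunit of the COPII coat, was the transport gene called in all 3 lines. It had 60.7, 64.5 and 63.2 CPM with E2 in LNCaP, against 42, 40.5 and 43.9 CPM with vehicle. In C4-2 it had 61.1, 60.2 and 66.4 CPM with E2, against 49.2, 47.7 and 51.3 CPM with vehicle. In 22Rv1 it had 34.2, 34.7 and 35.0 CPM with E2, against 24.6, 25.3 and 26.2 CPM with vehicle. None of these groups overlap, and the log2 fold changes were 0.57 ± 0.04, 0.34 ± 0.05 and 0.44 ± 0.06 (limma, adjusted p = 3.1e-11, 9.2e-05 and 6.3e-06). The translocon subunit SEC61B rose in LNCaP (0.28 ± 0.05) and gave -0.04 ± 0.07 in C4-2 and 0.17 ± 0.07 in 22Rv1 (limma, adjusted p = 5.5e-05, 0.79 and 0.083). SSR1 and SSR3, subunits of the translocon-associated TRAP complex, rose by 0.29 ± 0.03 and 0.24 ± 0.03 in LNCaP. KDELR2, which returns escaped chaperones to the ER, rose in LNCaP (0.17 ± 0.03) and 22Rv1 (0.21 ± 0.05) and gave -0.06 ± 0.04 in C4-2. Its paralog KDELR3 gave 0.15 ± 0.15, 0.14 ± 0.09 and 0.04 ± 0.09 in LNCaP, C4-2 and 22Rv1, with no call.

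**Figure D2:**
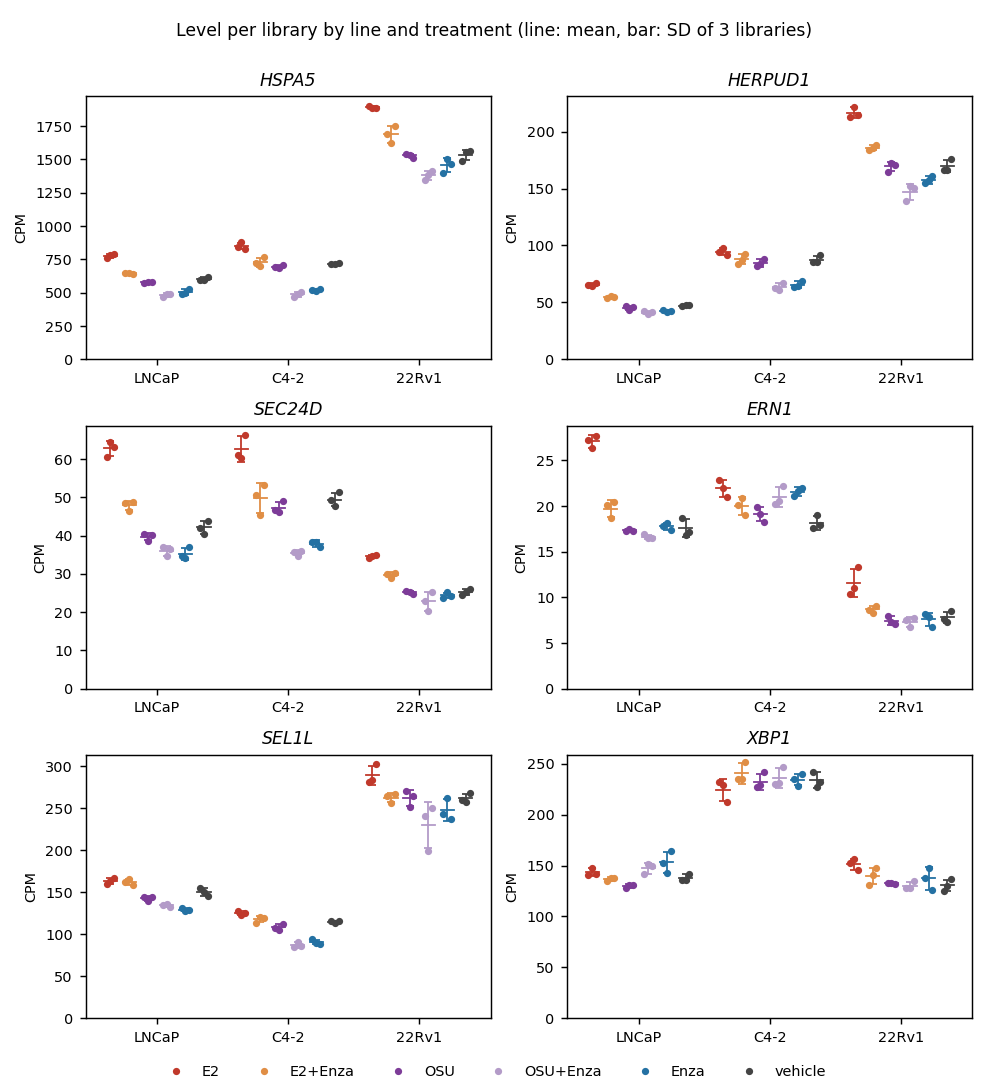
Level in CPM (linear axis from 0) of 6 members in each of the 54 libraries, by line and treatment; points are libraries, the horizontal line is the mean and the bar the SD of 3 libraries. HSPA5, SEC24D and ERN1 with E2 lie above vehicle in every line, HSPA5, HERPUD1, SEC24D and SEL1L with Enza lie below vehicle in C4-2, and XBP1 shows neither pattern in C4-2.

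HSPA5, DNAJC3, HYOU1, MANF, ERN1 and SEC24D were the 6 members called higher with E2 in all 3 lines. The 26 members called in both LNCaP and 22Rv1 make up 76.5% of the LNCaP calls, where 30 of all 40 members were called in 22Rv1, and 86.7% of the 22Rv1 calls, where 34 of 40 were called in LNCaP, so that the overlap is near what the lengths of the lists alone give. ATF6 and KDELR3 were the 2 called in no line. In C4-2 the count of 7 rests on single libraries: it was 4 without vehicle 2, 4 without vehicle 3, 3 without E2 1 and 4 without E2 2, and 6 without C4-2 vehicle 1 and E2 3 together. With vehicle 1 and E2 3 both left out, the member median in C4-2 was 0.097, against 0.048 with all libraries. The count of all genes called was then 396, against 817. The calls of SEC24D, ERN1 and HSPA5 in C4-2 were kept whichever of its libraries was left out, while that of DNAJC3 was lost without vehicle 2, vehicle 3, E2 1 or E2 2, that of HYOU1 without vehicle 1, vehicle 2, E2 1 or E2 2, and that of MANF without vehicle 3, E2 1 or E2 2. Scaled by total reads instead of the authors' effective library sizes, 30 members rose in LNCaP, 20 in 22Rv1 and 13 in C4-2, while over all genes 1148 rose and 2657 fell in LNCaP, against 1894 and 1657 with the effective sizes. In 22Rv1 1007 genes then rose and 2131 fell.

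The size of the E2 effect differed between the lines for 25 of 40 members, where 29.1% of 16026 genes were called (F test over the 3 lines in a fit of all 54 libraries, limma). Every member, called or not, had a smaller estimate in C4-2 than in LNCaP, so this direction is not particular to the 25. Among the 25 the difference was least for EDEM2, at -0.04 on the log2 scale, where 22Rv1 differed from LNCaP by 0.23. The share of all genes with a smaller estimate in C4-2 is not given. HERPUD1 differed by -0.36 ± 0.06 between C4-2 and LNCaP, CREB3L2 by -0.38 ± 0.06, DNAJB9 by -0.46 ± 0.09 and KDELR2 by -0.23 ± 0.06 (limma, adjusted p of the F test 1.4e-05, 5.2e-06, 0.00043 and 0.00042). HSPA5, at -0.12 ± 0.05 in C4-2 and -0.06 ± 0.05 in 22Rv1 relative to LNCaP, was not called (limma, adjusted p = 0.21). The count was 14 without C4-2 vehicle 1, 13 without C4-2 E2 3 and 13 without all 4 libraries named as apart. It was 9 with total read scaling, which raises the count of E2 calls in C4-2 and lowers it in the other lines.

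With Enza many members were called lower in C4-2, fewer in LNCaP and none in 22Rv1. In C4-2 23 of 40 fell and ERN1 rose, where 5.71% of genes fell and 2.73% rose. In LNCaP 13 fell and XBP1 rose, where 10.6% fell and 9.79% rose. In 22Rv1 no member was called by limma, 4 had an unadjusted p under 0.05 (3 with voom weights, also with none called), and 0.491% of all genes fell and 0.168% rose. The median log2 fold change of the members was -0.17 in C4-2, -0.07 in LNCaP and 0.02 in 22Rv1, with the median of all genes at 0.02 or less in size. Among genes of at least 50 CPM on average, 9.55% fell in C4-2, 13.6% in LNCaP and 0.619% in 22Rv1, against 21 of 32, 11 of 30 and 0 of 31 members. The median at that level was -0.175 for members and -0.05 for all genes in C4-2, -0.07 and 0.01 in LNCaP, and 0.02 and 0.04 in 22Rv1. Scaled by total reads, 742 genes rose and 496 fell in C4-2, and 20 members fell and 1 rose. In C4-2 the members summed to 8329, 8540 and 8547 CPM with Enza, against 9576, 9604 and 9867 CPM with vehicle, with no overlap. In 22Rv1 the sums were 14844 to 16060 CPM with Enza and 15104 to 15659 CPM with vehicle, which overlap. Small RNA genes took 8.154% to 12.557% of reads in the 22Rv1 Enza libraries. A missing call there does not show that Enza had no effect.

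By branch, 14 of 17 chaperones and folding enzymes fell in C4-2 and 6 in LNCaP. HSPA5 had 520, 515 and 527 CPM with Enza in C4-2, against 716, 713 and 720 CPM with vehicle. In LNCaP it had 493, 494 and 531 CPM with Enza, against 595, 596 and 620 CPM with vehicle. The groups do not overlap in either line, and the log2 fold changes were -0.46 ± 0.04 and -0.25 ± 0.03 (limma, adjusted p = 9.5e-09 and 1.3e-06). In 22Rv1 HSPA5 had 1402, 1504 and 1463 CPM with Enza and 1489, 1553 and 1560 CPM with vehicle, which overlap (-0.07 ± 0.06, limma, adjusted p = 0.55). MANF fell by 0.39 on the log2 scale in C4-2 and by 0.30 in LNCaP, with 99.1, 98.2 and 95 CPM with Enza against 132, 131 and 120 CPM with vehicle in C4-2. In 22Rv1 MANF gave 0.04 ± 0.04. DNAJB9 gave -0.36 ± 0.06 in C4-2, -0.07 ± 0.07 in LNCaP and -0.09 ± 0.07 in 22Rv1, and was called in C4-2 (limma, adjusted p = 0.00012). HSP90B1 fell in C4-2 (-0.29 ± 0.05) and LNCaP (-0.15 ± 0.03), as did PDIA4 (-0.26 ± 0.05 and -0.15 ± 0.03). SDF2L1 fell in C4-2 (-0.25 ± 0.07), a call lost without vehicle 1, vehicle 2, Enza 2 or Enza 3, and gave -0.10 ± 0.06 in LNCaP.

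Of the degradation factors 3 of 7 fell in C4-2 and 2 in LNCaP. HERPUD1 had 63.8, 64.6 and 68.8 CPM with Enza in C4-2, against 85.5, 85.8 and 91.3 CPM with vehicle. Its log2 fold change was -0.41 ± 0.05 in C4-2, -0.16 ± 0.04 in LNCaP and -0.10 ± 0.04 in 22Rv1 (limma, adjusted p = 1.1e-06, 0.0041 and 0.27). SEL1L had 93.8, 89.1 and 88.7 CPM with Enza in C4-2, against 116, 113 and 116 CPM with vehicle, and in LNCaP 131, 128 and 129 CPM with Enza, against 155, 150 and 145 CPM with vehicle. The groups do not overlap in either line, at -0.34 ± 0.04 in C4-2 and -0.21 ± 0.03 in LNCaP (limma, adjusted p = 8.6e-07 and 9.4e-06). SYVN1, EDEM2, DERL1 and DERL2 were not called with Enza in any line.

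Among the sensors and transcription factors 1 rose in C4-2, and 1 rose and 1 fell in LNCaP. ERN1 rose with Enza in C4-2, with 21.1, 21.7 and 22.0 CPM with Enza against 17.6, 19.1 and 17.9 CPM with vehicle (0.24 ± 0.06, limma, adjusted p = 0.011). This call was lost without vehicle 1 or without Enza 3. XBP1 rose in LNCaP, with 153, 143 and 164 CPM with Enza against 136, 136 and 142 CPM with vehicle (0.15 ± 0.04, limma, adjusted p = 0.0061), a call lost without Enza 3. CREB3L4 fell in LNCaP (-0.17 ± 0.04), and CREB3L2 (-0.02 ± 0.04), ATF6 (0.03 ± 0.04) and EIF2AK3 (-0.10 ± 0.06) were not called there. In C4-2 no other sensor or factor was called: XBP1 gave 0.00 ± 0.04, ATF6 -0.04 ± 0.06, EIF2AK3 -0.13 ± 0.06, CREB3L2 -0.03 ± 0.04 and CREB3L4 -0.12 ± 0.04.

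Of the transport genes 6 of 10 fell in C4-2 and 4 in LNCaP. SEC24D had 38.3, 38.4 and 36.9 CPM with Enza in C4-2, against 49.2, 47.7 and 51.3 CPM with vehicle, and 34.5, 34.2 and 37.0 CPM with Enza in LNCaP, against 42, 40.5 and 43.9 CPM with vehicle. The groups do not overlap, and it fell by 0.38 and 0.25 on the log2 scale (limma, adjusted p = 1.8e-05 and 9.3e-05). SSR1, SSR3 and LMAN1, the last a cargo receptor for glycoproteins, fell in both lines too, by at most 0.19. The LMAN1 call was lost in LNCaP without any 1 of the 6 libraries compared, and in C4-2 without vehicle 1, vehicle 3, Enza 2 or Enza 3. In C4-2 the SSR3 call was lost without vehicle 1 or Enza 2 and that of SSR1 without Enza 2. KDELR2 fell in C4-2 (-0.16 ± 0.04), a call lost without vehicle 1, vehicle 2, Enza 2 or Enza 3. SEC61B gave -0.21 ± 0.07 in C4-2 and 0.03 ± 0.05 in LNCaP, and KDELR3 0.00 ± 0.09 and -0.14 ± 0.15, none of them called. In all, 12 members fell in both LNCaP and C4-2, which is 92.3% of the LNCaP list, where 23 of all 40 members fell in C4-2, and 52.2% of the C4-2 list, where 13 of 40 fell in LNCaP.

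The Enza effect differed between the lines for 18 of 40 members, where 13.3% of genes were called (F test, limma). HSPA5 in C4-2 differed from LNCaP by -0.21 ± 0.05, and 22Rv1 from LNCaP by 0.18 ± 0.05 (limma, adjusted p of the F test 2.4e-06). For MANF the 22Rv1 difference was 0.35 ± 0.06 and the C4-2 difference -0.08 ± 0.06 (limma, adjusted p 2.0e-06), and for HERPUD1 they were 0.05 ± 0.06 and -0.25 ± 0.06 (limma, adjusted p 0.00023). The count was 10 without 22Rv1 vehicle 1, 11 without 22Rv1 Enza 2, 11 without C4-2 Enza 2 and 4 with total read scaling.

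**Figure D3:**
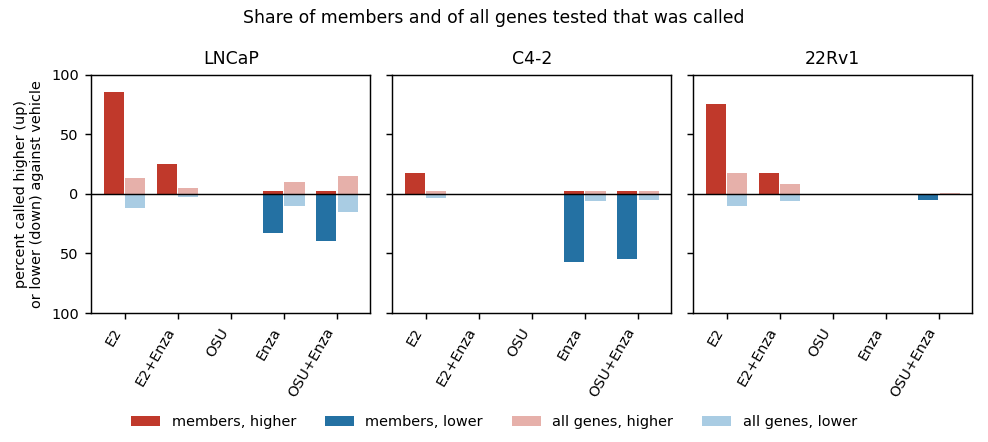
Percent called higher (upward bars) or lower (downward bars) against vehicle, for the 40 members (dark) and all genes tested (pale), by treatment and line; bars start at 0. With E2 the members reach 34 of 40 in LNCaP and 30 of 40 in 22Rv1, with Enza 23 of 40 fall in C4-2, and with OSU no member bar is seen.

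OSU alone moved no member past the test in any line. The share of all genes called with OSU was 0.014% in LNCaP, all of them lower, and 0% in C4-2 and 22Rv1. At an unadjusted p under 0.05 there were 7 members in LNCaP, 2 in C4-2 and 0 in 22Rv1, and voom weights also called none, with 7, 2 and 0 at that level. The share of all genes at that level is not given, so these counts are not read as particular to the members. HSPA5 had 571, 578 and 581 CPM with OSU in LNCaP, against 595, 596 and 620 CPM with vehicle, which do not overlap. In C4-2 it had 690, 688 and 707 CPM with OSU, against 716, 713 and 720 CPM with vehicle, which do not overlap either. In 22Rv1 it had 1542, 1534 and 1514 CPM with OSU, against 1489, 1553 and 1560 CPM with vehicle, which overlap. The mean OSU effect over the 3 lines called 0 members and 0% of genes (limma, with 1 member at an unadjusted p under 0.05, EDEM1 at -0.05, and 1 with voom weights). For HSPA5 the 95% interval of this mean effect was -0.08 to 0.01 on the log2 scale, for ERN1 -0.08 to 0.08 and for SEC24D -0.11 to 0.01. Over all 40 members the intervals reached no further than -0.12 and 0.16.

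E2 and OSU were compared directly at 100 nM and 12 h, 1 pair of groups in each of the 3 lines. With E2 36 members were higher than with OSU in LNCaP (12.8% of all genes were), 10 in C4-2 (2.94%) and 28 in 22Rv1 (13.2%), and none was lower, where 11.8%, 3% and 8.81% of genes were (limma). HSPA5 was 0.43 ± 0.03 higher with E2 than with OSU in LNCaP, 0.29 ± 0.04 in C4-2 and 0.31 ± 0.06 in 22Rv1. SEC24D was 0.66 ± 0.04, 0.40 ± 0.05 and 0.45 ± 0.06 higher, and ERN1 0.63 ± 0.06 in LNCaP and 0.59 ± 0.10 in 22Rv1 (limma, adjusted p at most 0.00029 for each of these). In C4-2 ERN1 had 22.9, 22.0 and 21.0 CPM with E2 and 19.9, 19.1 and 18.3 CPM with OSU, a difference of 0.19 ± 0.06 that was not called (limma, adjusted p = 0.054). The C4-2 count was 5 without E2 1, 6 without OSU 1, 6 without the libraries set apart and 17 with total read scaling. In 22Rv1 total read scaling gave 18 members higher and 1 lower with E2 than with OSU. These comparisons use the E2 libraries already described.

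The E2 effect was also measured in the presence of Enza. Against Enza alone, E2 with Enza raised 27 members and lowered XBP1 in LNCaP (12.2% of genes rose and 10.9% fell), raised 17 in C4-2 (4.43% rose and 2.94% fell) and raised 7 in 22Rv1 (4.11% rose and 3.83% fell), with no member lower in the last 2 lines. In C4-2 HSPA5 had 722, 700 and 766 CPM with E2 and Enza, against 520, 515 and 527 CPM with Enza, without overlap (0.48 ± 0.04, limma, adjusted p = 2.3e-09). HERPUD1 in C4-2 had 83.8, 87.2 and 92.4 CPM with E2 and Enza, against 63.8, 64.6 and 68.8 CPM with Enza, also without overlap (0.41 ± 0.05, limma, adjusted p = 7.4e-07). DNAJB9 rose there by 0.41 ± 0.06. MANF rose in LNCaP by 0.46 ± 0.04, SEC24D by 0.44 ± 0.04 and CRELD2, an isomerase induced by ER stress, by 0.39 ± 0.04. In 22Rv1 EDEM2 rose by 0.36 ± 0.06, SEC24D by 0.28 ± 0.06 and HERPUD1 by 0.24 ± 0.04. XBP1 in LNCaP had 135, 138 and 138 CPM with E2 and Enza, against 153, 143 and 164 CPM with Enza, without overlap (-0.16 ± 0.04, limma, adjusted p = 0.0022). The C4-2 count was 11 without E2+Enza 3 and the 22Rv1 count 4 without E2+Enza 3.

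Against vehicle, E2 with Enza left 10 members higher in LNCaP (4.52% of genes were higher), 7 in 22Rv1 (8.1%) and 0 in C4-2 (0.0428%), and none lower (2.91%, 5.72% and 0.0356% of genes). In C4-2 4 members had an unadjusted p under 0.05 by limma (5 with voom weights, none called), and member values lay between -0.13 and 0.14 on the log2 scale. HSPA5 in C4-2, at 722, 700 and 766 CPM with E2 and Enza and 716, 713 and 720 CPM with vehicle, had a 95% interval of -0.06 to 0.11 for this difference. EDEM2 was higher in LNCaP (0.33 ± 0.06) and 22Rv1 (0.29 ± 0.06), and CREB3L2 in LNCaP (0.23 ± 0.04). The LNCaP count was 5 with total read scaling. The 22Rv1 count was 3 without vehicle 1, 4 without vehicle 2, 2 without E2+Enza 3 and 1 with total read scaling.

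Whether Enza changed the E2 effect was tested as the E2 effect with Enza minus the E2 effect without it. In LNCaP 7 members were called, SEL1L with a larger effect (0.20 ± 0.04) and 6 with a smaller one, where 4.51% of genes were called higher and 4.54% lower. The 6 were ERN1 (-0.47 ± 0.08), DNAJB9 (-0.34 ± 0.10), DNAJC3 (-0.25 ± 0.05), SEC61B (-0.23 ± 0.07), XBP1 (-0.22 ± 0.05) and CREB3L2 (-0.19 ± 0.05), with adjusted p at most 0.037 (limma). ERN1 in LNCaP had 20.1, 18.7 and 20.4 CPM with E2 and Enza against 17.8, 18.1 and 17.4 CPM with Enza, so that its E2 effect was 0.15 ± 0.06 with Enza, against 0.61 ± 0.06 without it. SEL1L had 162, 166 and 158 CPM with E2 and Enza, against 131, 128 and 129 CPM with Enza, an effect of 0.33 ± 0.03 with Enza, against 0.13 ± 0.03 without it. The call of SEC61B was lost without any of vehicle 1, vehicle 2, E2 1, E2 2, Enza 1, Enza 3, E2+Enza 1 and E2+Enza 3, that of DNAJB9 without vehicle 1, E2 2, Enza 1, Enza 2, E2+Enza 2 or E2+Enza 3, and that of CREB3L2 without vehicle 2 or E2+Enza 3. The LNCaP count was 4 without E2+Enza 3, and with total read scaling 1 was higher and 2 lower.

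In C4-2 HERPUD1 (0.30 ± 0.07), SEL1L (0.25 ± 0.06) and HSPA5 (0.24 ± 0.06) had a larger E2 effect with Enza and ERN1 a smaller one (-0.37 ± 0.08), where 1.06% of genes were called higher and 0.442% lower (limma, adjusted p 0.019, 0.016, 0.033 and 0.022). ERN1 had 20.2, 20.9 and 19.0 CPM with E2 and Enza and 21.1, 21.7 and 22.0 CPM with Enza. The C4-2 count was 2 without vehicle 1, 1 without vehicle 3, 1 without E2 1, 2 without E2 3, 2 without Enza 1, 0 without Enza 2, 1 without Enza 3 and 1 without E2+Enza 3. The HSPA5 call was kept without E2 2 and without E2+Enza 2 and lost without any other of these 12 libraries. The count was 0 without the libraries set apart, and 1 higher and 1 lower with total read scaling. In 22Rv1 no member was called (0.135% of genes were higher and 0.289% lower), 15 had an unadjusted p under 0.05 by limma and 17 with voom weights, and the median was -0.13, against -0.04 for all genes. The share of all genes at that unadjusted level is not given, so these counts are not read as particular to the members. The number of members called was 1 without E2 3, 1 without Enza 3 and 2 without E2+Enza 3.

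**Figure D4:**
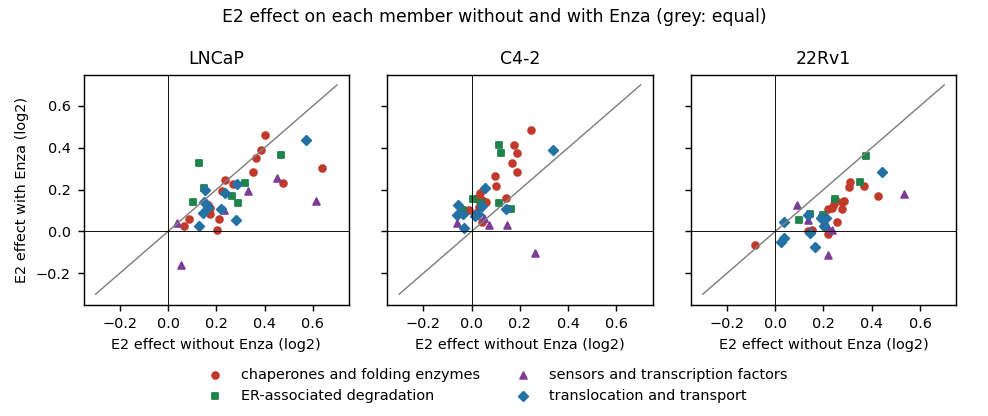
Log2 E2 effect on each member with Enza (E2 and Enza over Enza, vertical) against that without Enza (E2 over vehicle, horizontal), by line; the grey line marks equal effects and symbols mark branches. In LNCaP ERN1 (0.15 with and 0.61 without Enza) lies below the line, in C4-2 HSPA5 (0.48 and 0.25) lies above it, and in 22Rv1 most members lie below it.

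OSU with Enza left 16 members lower and EDEM2 higher than vehicle in LNCaP (15.2% of genes were lower and 14.5% higher), 22 lower and ERN1 higher in C4-2 (5.23% and 2.15%), and DNAJB9 and HERPUD1 lower in 22Rv1 (1.33% lower and 0.666% higher). This comparison was added after the design was written. HSPA5 had 468, 488 and 490 CPM with OSU and Enza in LNCaP, against 595, 596 and 620 CPM with vehicle, and 471, 488 and 508 CPM in C4-2, against 716, 713 and 720 CPM with vehicle. Its log2 fold changes were -0.32 ± 0.03 and -0.55 ± 0.04, where Enza alone gave -0.25 ± 0.03 and -0.46 ± 0.04 against the same vehicle libraries. The EDEM2 call was lost without LNCaP vehicle 1, vehicle 2, OSU+Enza 2 or OSU+Enza 3, and the ERN1 call without C4-2 vehicle 1, vehicle 3 or any OSU+Enza library. In 22Rv1 the DNAJB9 call was lost without any 1 of the 6 libraries compared and the HERPUD1 call without vehicle 3. The 22Rv1 count was 1 without vehicle 1, 1 without vehicle 2, 0 without vehicle 3 and 1 without OSU+Enza 2. Against Enza alone, averaged over the lines, EIF2AK3 was the only member called, at -0.15 ± 0.03 on the log2 scale (limma, adjusted p = 0.022, 0.362% of genes lower and 0.0811% higher). It had 19.8, 21.1 and 22.7 CPM with OSU and Enza in C4-2, against 23.8, 25.1 and 24.9 CPM with Enza. In LNCaP it had 19.3, 17.6 and 17.6 CPM with OSU and Enza against 19.2, 19.5 and 18.7 CPM with Enza, and in 22Rv1 16.9, 15.3 and 17.8 CPM against 17.5, 19.4 and 19.0 CPM. The groups do not overlap in C4-2 and overlap in LNCaP and 22Rv1. This call was lost without LNCaP Enza 2, LNCaP OSU+Enza 2, LNCaP OSU+Enza 3, 22Rv1 OSU+Enza 2 or C4-2 OSU+Enza 1, each of which leaves 0 called, and the count was 2 without 22Rv1 OSU+Enza 3.

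With vehicle alone the lines differed in most members. In 22Rv1 vehicle cells 26 members were higher and 12 lower than in LNCaP vehicle cells, where 40.4% of 16026 genes were higher and 43% lower (limma, fit of all 54 libraries). The chaperones and the transport genes went opposite ways there: 16 of 17 chaperones and folding enzymes were higher (median log2 difference 1.04), and 7 of 10 transport genes were lower and 2 higher (median -0.37). CRELD2 had 346, 343 and 349 CPM in 22Rv1, against 46.7, 48.8 and 51.6 CPM in LNCaP (2.81 ± 0.05). HSP90B1 had 3375, 3482 and 3418 CPM in 22Rv1, against 826, 828 and 865 CPM in LNCaP (2.03 ± 0.05). PDIA4 was 2.34 ± 0.05 higher and HERPUD1 1.83 ± 0.04 higher. LMAN1 had 82.8, 85.4 and 89.5 CPM in 22Rv1, against 248, 244 and 246 CPM in LNCaP (-1.51 ± 0.04), and ERN1 7.67, 7.30 and 8.47 CPM, against 18.7, 16.8 and 17.2 CPM (-1.12 ± 0.07). None of these groups overlap.

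In C4-2 vehicle cells 31 members were higher and 4 lower than in LNCaP, where 34% of genes were higher and 32.7% lower. The chaperones (15 of 17 higher, median 0.25) and the transport genes (8 of 10 higher, 2 lower, median 0.48) had the same direction here. HERPUD1 had 85.5, 85.8 and 91.3 CPM in C4-2, against 46.7, 47.6 and 47.5 CPM in LNCaP (0.88 ± 0.04). KDELR3 had 7.87, 6.51 and 7.19 CPM in C4-2, against 3.50, 2.29 and 2.13 CPM in LNCaP (1.31 ± 0.11), and ERO1A was 0.84 ± 0.05 higher. The 4 lower members were ATF6 (-0.52 ± 0.05), SEL1L (-0.38 ± 0.05), SEC31A (-0.33 ± 0.04) and SEC23B (-0.32 ± 0.04), the last 2 being COPII coat subunits. Total read scaling shifted the median of all genes to -0.10 in this comparison, and then 23 members were higher and 4 lower, with a member median of 0.19, and 3933 genes were higher and 6672 lower.

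**Figure D5:**
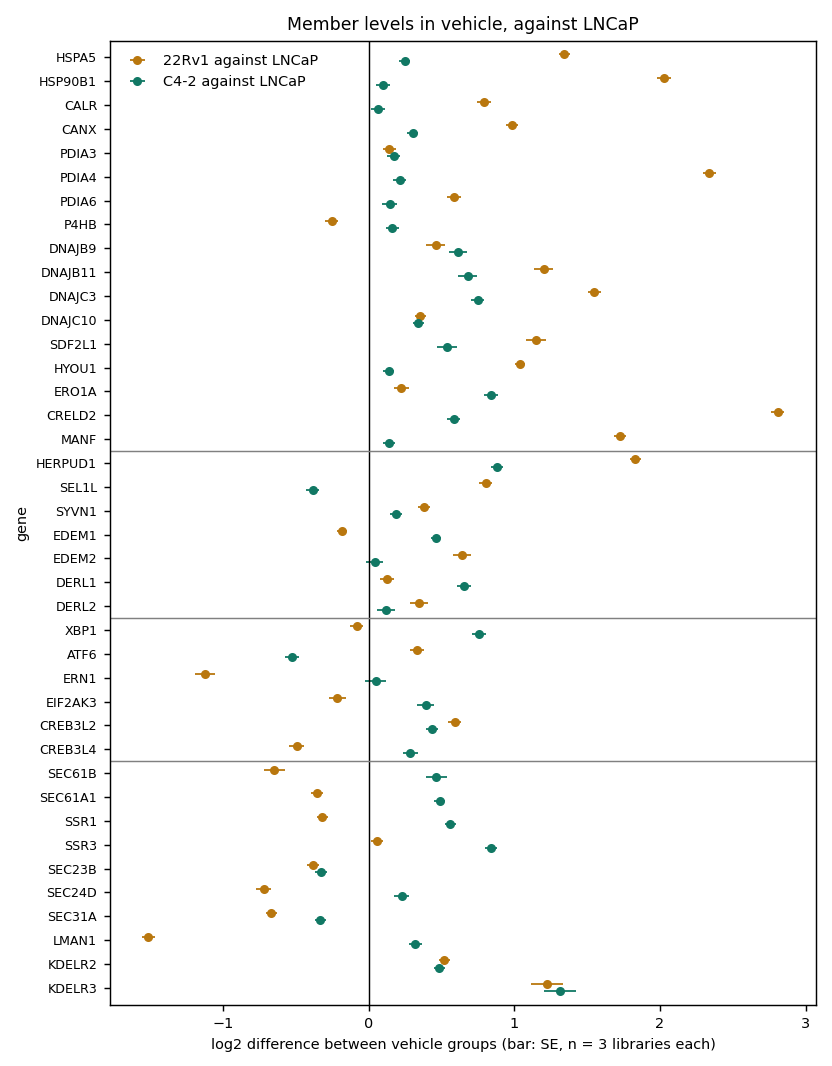
Log2 difference of each member between vehicle groups, 22Rv1 against LNCaP (orange) and C4-2 against LNCaP (green), with the SE (n = 3 libraries per group), grouped by branch. In 22Rv1 CRELD2 lies at 2.81 and PDIA4 at 2.34, while LMAN1 at -1.51 and most other transport genes lie left of 0.

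Beyond the 40, 83 other genes of the same pathway were looked up, of which 82 entered the fits. With E2 43 rose and 3 fell in LNCaP, 3 rose in C4-2, and 49 rose and 1 fell in 22Rv1, where 13.3%, 2.72% and 17.1% of all genes rose and 11.6%, 3.11% and 10.6% fell, so that the C4-2 count is near the share of all genes. With Enza 10 rose and 9 fell in LNCaP, 16 fell in C4-2 and 1 fell in 22Rv1, where 9.79% of all genes rose and 10.6% fell in LNCaP, 5.71% fell in C4-2 and 0.491% fell in 22Rv1. The LNCaP counts are near these shares. The coat and cargo transport genes had 16 of 22 higher with E2 in LNCaP and 16 of 22 in 22Rv1, among them SAR1B, the GTPase that starts COPII coat assembly (0.42 ± 0.03 in LNCaP). Of the degradation genes UBE2J1, an ER-bound ubiquitin-conjugating enzyme, rose in LNCaP by 0.46 ± 0.04 and the mannosidase EDEM3 by 0.45 ± 0.03.

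The 6 genes listed for the output of PERK and ATF4 were ATF4, DDIT3, ATF3, PPP1R15A, TRIB3 and CHAC1. With E2 in LNCaP none rose, and CHAC1 (-0.41 ± 0.11) and ATF4 (-0.14 ± 0.04) fell, while in 22Rv1 CHAC1 (0.43 ± 0.14), DDIT3 (0.18 ± 0.06) and ATF4 (0.13 ± 0.05) rose (limma, adjusted p 0.0083, 0.0036, 0.02, 0.016 and 0.044). With Enza in LNCaP PPP1R15A, which ends the PERK signal by dephosphorylating its target, rose by 0.50 ± 0.11, CHAC1 by 0.38 ± 0.11, DDIT3 by 0.22 ± 0.07 and ATF4 by 0.10 ± 0.04 (limma, adjusted p 0.0024, 0.018, 0.034 and 0.045). In 22Rv1 ATF3 fell with Enza (-0.25 ± 0.06, limma, adjusted p = 0.047). In C4-2 none of the 6 was called with E2 or Enza. Of all genes, 13.3% rose and 11.6% fell with E2 in LNCaP, and 17.1% rose with E2 in 22Rv1. With Enza 9.79% rose in LNCaP and 0.491% fell in 22Rv1. These 6 genes were not followed in the fits with other settings or with libraries left out.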

How the data were processed

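RNA was extracted with TRIzol and sequenced from libraries of a stranded total RNA kit, per the labels' protocols. FastQC, Trimmomatic, featureCounts, edgeR and the build hg38 are named in the submitters' processing notes. Tool versions were not given in the sources used here, nor was any use of strand in counting. The deposited values of the authors are a score: log2 CPM, computed from counts with 0.5 reads added, rescaled so that each column sums to 1000000, with 24.3% to 30.1% of values below 0. Undoing this gave whole reads for 100% of the deposited values (within 0.01 reads) and the authors' effective library sizes, which were used for CPM. Of 19225 rows, 18917 matched RefSeq by Entrez ID.

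Log2(CPM + 0.5) was fitted in limma 3.58.1 under R 4.3.3, letting the variance follow the mean level, over genes of at least 1 CPM in at least 3 libraries. Each line was fitted alone, and comparisons across lines used all 54 libraries. P-values are two-sided and Benjamini-Hochberg adjusted over all genes tested, with calls at 0.05. Counts of members at an unadjusted p under 0.05 are given without the share of all genes at that level. They are not read as particular to the members. The decoding and the test were run on simulated data. For the test, the simulated counts had 1 fixed spread for all genes and libraries. The libraries here vary unevenly, so that run does not show how well the calls hold for them. Groups follow the labels. OSU groups are titled WT and were taken from their treatment label. P-values rest on the spread of libraries around their group means, pooled over all groups of a fit and moderated across genes. They do not measure the spread of the compared groups alone, so a group whose libraries vary more is given the shared spread. The members, lists and tests were chosen with earlier results of these data known. Named genes were drawn from a set list of 16 and, in each comparison, from up to 3 members called with the largest change in each direction. Not all of these are given for every comparison. Other genes in the text were picked to show their branch. Same-numbered libraries did not deviate together (median correlation 0.01, 0 and 0 over 45 pairs in LNCaP, C4-2 and 22Rv1), so no pairing was used.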

Additional observations from a re-analysis of the deposited data

Results flagged for a closer look

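The E2 effect differed between the lines for 25 members and the Enza effect for 18, by a test of the difference itself (limma, F test over the 3 lines, adjusted over all genes). Of all genes tested, 29.1% and 13.3% were called in these tests. With total read scaling the counts were 9 and 4. For E2 the adjusted p was 5.18e-06 for CREB3L2, 1.4e-05 for HERPUD1, 0.000424 for KDELR2, 0.000432 for DNAJB9, 0.00524 for XBP1, 0.0137 for ERN1, 0.0331 for PDIA4, 0.0386 for SEC24D and 0.0405 for SEC61B. Relative to LNCaP the E2 effect on SEC24D differed by -0.23 ± 0.07 in C4-2 and that on XBP1 by 0.16 ± 0.07 in 22Rv1 (log2, SE). For Enza the adjusted p was 2.03e-06 for MANF, 2.41e-06 for HSPA5, 0.000229 for HERPUD1, 0.00776 for SEC24D, 0.0158 for SEL1L, 0.0177 for HSP90B1, 0.0204 for KDELR2, 0.0214 for CREB3L4, 0.0278 for DNAJB9 and 0.0352 for SEC61B. The E2 effect with Enza differed from that without it for 7 members in LNCaP and 4 in C4-2 (limma). Of all genes, 4.51% were called higher and 4.54% lower in LNCaP, and 1.06% and 0.442% in C4-2. The C4-2 count was 0 without Enza 2 and 0 without the libraries set apart.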

How the results depend on the processing

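Over 30 comparisons, 8 other settings and 99 fits without 1 library, no member reversed a called direction where the test has one. The F tests over the lines have no direction, so for them only gains and losses of a call could be seen. Over the other settings 9063 member results stayed on their side of the threshold, 187 lost and 110 gained a call, and with 1 library left out 9350, 422 and 68. Scaling by total reads changed most: 5 members called for E2+Enza versus vehicle in LNCaP and 1 in 22Rv1, 3 for the Enza dependence of the E2 effect in LNCaP and 2 in C4-2, 13 for E2 and 17 for E2 versus OSU in C4-2, 7 for OSU+Enza versus vehicle in 22Rv1, 3 for OSU+Enza versus Enza, and 9 and 4 for the line differences in the E2 and Enza effects. For OSU+Enza versus vehicle in 22Rv1 (2 called) the count was 1 with a pseudocount of 2 CPM, 1 without the filter, 4 with recomputed TMM factors, 7 in 1 fit of all 54 libraries and 1 without the libraries set apart. Without those libraries it was 6 for E2 versus OSU in C4-2, 0 for the Enza dependence in C4-2, 11 for E2+Enza versus vehicle in 22Rv1, 0 for OSU+Enza versus Enza and 13 for the E2 line difference. Voom gave 2 for OSU+Enza versus Enza, and the fit of all libraries gave 12 for E2+Enza versus vehicle and 1 for the Enza dependence in 22Rv1. The cause was not tested.

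With 1 library left out, the counts in LNCaP, C4-2 and 22Rv1 were 33 to 35, 3 to 6 and 25 to 30 for E2, 12 to 15, 16 to 22 and 0 for Enza, and 0 in each line for OSU. They were 7 to 11, 0 and 2 to 8 for E2+Enza versus vehicle, 15 to 17, 17 to 24 and 0 to 3 for OSU+Enza versus vehicle, 21 to 28, 11 to 18 and 4 to 10 for E2+Enza versus Enza, 33 to 36, 5 to 7 and 22 to 25 for E2 versus OSU, and 4 to 10, 0 to 4 and 0 to 2 for the Enza dependence. Over the lines they were 0 to 2 for OSU+Enza versus Enza, 13 to 27 for the E2 and 10 to 22 for the Enza line difference. A replicate block gave 34, 7 and 31 for E2 and 14, 24 and 0 for Enza and moved no count by over 1.5 times. Same-numbered libraries correlated between -0.51 and 0.43. The SE with E2 in LNCaP was 0.15 for KDELR3 (2.08 to 8.46 CPM) and 0.03 for HSPA5.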
